A study of Mus musculus with 6 samples.

Results

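Immune checkpoint receptors and ligands were examined in cultured primary mouse microglia as a set of 9 genes, chosen by symbol as inhibitory receptors and ligands found on microglia: Havcr2, Lgals9, Cd274, Pdcd1lg2, Lag3, Vsir, Cd200r1, Sirpa and Cd47. All 9 were among the 41079 genes of the count and FPKM tables, and 8 of them were among the 14618 genes with enough counts to test. RNA-seq libraries came from microglia of C57Bl/6N mice aged 1 to 3 days, expanded in mixed glial flasks with L-929 conditioned medium and collected by shaking. The 3 control libraries were from cultures in serum-free DMEM/F12. The 3 optimized libraries were from cultures that the labels describe as given human TGFbeta, human IL34 and CX3CL1 at 100 ng/mL each. The methods of the study add cholesterol, insulin-transferrin-selenium and collagen IV coating to the optimized cultures, so the supplements cannot be told apart. The flasks were seeded from pooled neonatal brains, and the labels do not say whether the libraries of a condition came from separate cultures, although the study calls them biological replicates. The p-values measure the spread between these libraries.

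Checkpoint pathways restrain immune cells through pairs of a ligand and an inhibitory receptor. TIM-3, the product of Havcr2, binds galectin-9 (Lgals9), PD-1 binds PD-L1 (Cd274) and PD-L2 (Pdcd1lg2), and SIRPα (Sirpa) binds CD47, the signal that keeps phagocytes from engulfing healthy cells. LAG-3 binds MHC class II, VISTA (Vsir) acts both as ligand and as receptor, and CD200R1 receives CD200 from neurons, a contact known to hold microglia in a quiet state. SIRPα and CD200R1 are typical myeloid receptors, whereas LAG-3 is best known from T cells.

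Count totals lay between 20628148 and 27261839 per library. Chi-square values between libraries within a condition were 10.6 to 78.5 per degree of freedom, so no library was a copy of another. Summed microglial markers (7 of 8 listed under the symbols used) were at 5879 to 5979 CPM in control and 10323 to 12029 CPM in optimized libraries. Of 8 T cell markers, Cd3e, Cd3g, Cd8a, Cd8b1, Trac and Cd2 had 0 counts in every library, and the 8 together summed to 0.437 to 0.571 CPM in control and 0.237 to 1.06 CPM in optimized libraries. The sum of 5 fibroblast markers was 34.2 to 48.2 CPM in control and 30.4 to 150.2 CPM in optimized libraries, highest in optimized library 3. The neutrophil list stood apart in optimized library 1 at 72.9 CPM against at most 0.245 CPM elsewhere, through Ltf alone (1534 counts), while Ly6g and Ngp had 0 counts. Astrocyte markers summed to at least 22.2 CPM in control and to 10.8 to 12.4 CPM in optimized libraries, with 1 of 4 called, Aldh1l1 (means of 16.5 and 4.64 CPM), while Gfap had means of 4.18 and 4.68 CPM. Oligodendrocyte markers summed to 125 to 140.3 CPM in control and 156 to 189.6 CPM in optimized libraries, with 1 of 5 called, Mbp (means of 94.2 and 119 CPM). Neuron markers summed to 2.05 to 3.41 and 3.93 to 4.26 CPM, with Nefl called (means of 0.227 and 1.14 CPM). Dendritic cell markers summed to 8.46 to 9.18 and 5.80 to 7.11 CPM. Of these, Zbtb46 was called lower (8.12 and 4.70 CPM) and Siglech higher (0.396 and 1.27 CPM). The part of these differences in the results below was not tested, and each member is given with single libraries left out where that changed a call. In bulk RNA, fewer cells of a type and less RNA per cell cannot be told apart.

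The set split. Havcr2 rose 4.84-fold and Lag3 rose 1.48-fold under the optimized conditions, while Sirpa, Cd47 and Cd200r1 fell to between 0.448 and 0.470 of the control level. Lgals9, Cd274 and Vsir did not pass the test, and Pdcd1lg2 had too few counts to enter it. In all, 5 of the 8 tested members passed the test (edgeR quasi-likelihood, Benjamini-Hochberg adjusted p, written adj. p, under 0.05), against 29.8% of all genes tested and 33.6% of genes with a mean of at least 5 CPM. Lag3 passed in 8 of 15 alternative fits, and Havcr2, Sirpa, Cd47 and Cd200r1 passed in all 15. The members called were 2 higher, against a background of 14.7% of genes, and 3 lower, against 15.2%. The members were chosen with earlier results of these data known, so these shares do not test the set. The median log2 fold change (log2FC, optimized over control) of the 8 tested members was 0.14, and that of all genes tested was 0.0079. Of all calls 49.1% were higher, and 32.3% with library size alone, which moved the median of all genes by -0.13 on the log2 scale.

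**Figure D1:**
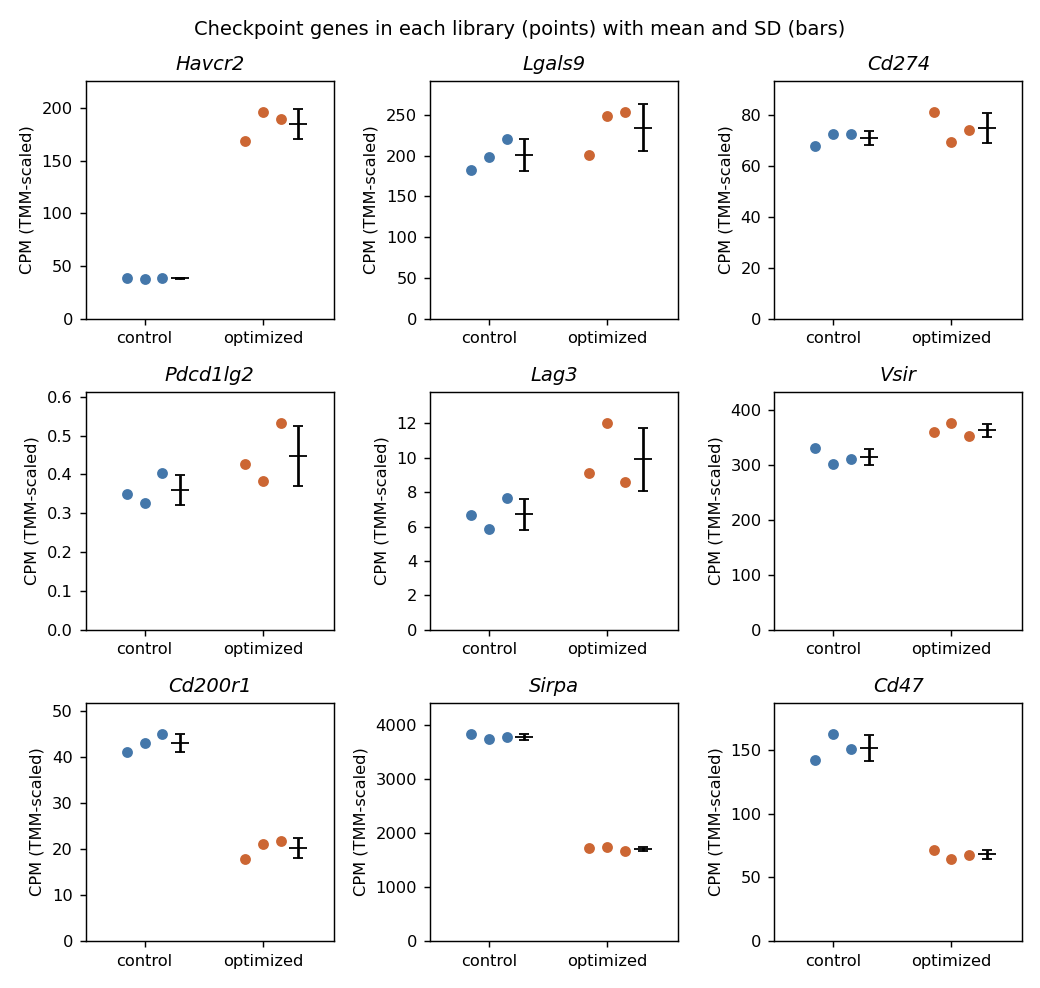
Expression of the 9 checkpoint genes in each of 3 control (blue) and 3 optimized (orange) libraries, in TMM-scaled CPM on axes that start at 0, with the mean and SD of each condition as black bars. Havcr2, Lag3 and Vsir lie higher in every optimized library, Cd200r1, Sirpa and Cd47 lie lower in every optimized library, and Lgals9, Cd274 and Pdcd1lg2 overlap between conditions. Of all genes tested, 21.4% lie higher and 22.5% lower in every optimized library.

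Havcr2 encodes TIM-3, an inhibitory receptor that is also part of the microglial homeostatic profile. It had counts of 875, 922 and 1058 (control) against 3561, 4607 and 3924 (optimized). After scaling to library size with TMM factors, in CPM, this was 38.3, 37.6 and 38.7 CPM in control and 169, 196 and 189.8 CPM in optimized cultures. The conditions were far apart, with control libraries within about 1 CPM of each other. The log2FC was 2.27 (SE 0.090, adj. p 1.3e-07) by edgeR, the largest change of the set in either direction. The gene lies on chromosome 11 of GRCm39 from 46345673 to 46374149 on the plus strand, has 7 exons in its canonical transcript, and shares no exon with another annotated gene. In 15 alternative fits its log2FC stayed between 2.06 and 2.34, with an adj. p under 0.05 in each.

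The 250 bases before the annotated start of Havcr2 are shown because it changed most, and those of Cd274 because it is the member best known as an interferon target and the one whose log2FC was closest to 0 among those tested. Capitals mark matches, on either strand, to the interferon-stimulated response element (ISRE) and to the PU.1 core GAGGAA, which do not overlap each other here. The other motifs searched were the STAT element TTCNNNGAA, the SMAD element GTCTAGAC and the shorter SMAD motif CAGACA. The windows are chr11:46345423-46345672 and chr19:29344279-29344528 of GRCm39, both on the plus strand and written 5′ to 3′.
Havcr2: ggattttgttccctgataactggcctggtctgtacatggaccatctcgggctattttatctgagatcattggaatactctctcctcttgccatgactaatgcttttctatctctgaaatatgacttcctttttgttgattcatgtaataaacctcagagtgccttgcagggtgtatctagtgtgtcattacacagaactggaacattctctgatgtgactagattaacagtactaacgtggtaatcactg
Cd274: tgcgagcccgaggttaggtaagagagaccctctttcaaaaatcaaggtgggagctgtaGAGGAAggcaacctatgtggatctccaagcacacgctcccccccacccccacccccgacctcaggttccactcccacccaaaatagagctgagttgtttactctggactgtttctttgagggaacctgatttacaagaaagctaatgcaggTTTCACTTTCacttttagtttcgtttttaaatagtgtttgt
The Havcr2 window held none of the 5 motifs. The Cd274 window held 1 match to the interferon element, beginning 41 bases before the start, and 1 to the PU.1 core. Among the 250-base windows of 21757 protein-coding genes, 3.32% held the interferon element, 22.9% the PU.1 core, 7.7% the STAT element, 15.6% the shorter SMAD motif and 0.239% the full SMAD element. Cd274 was the sole member with the interferon element, and no member held the STAT element or either SMAD motif. A match describes letters in this window and not a bound site.

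Lgals9, the galectin that binds TIM-3, did not pass the test. It lies on chromosome 11 from 78853800 to 78875798 on the minus strand. Lgals9 was at 182, 199 and 221 CPM in control and 201, 249 and 254 CPM in optimized libraries, and the conditions overlapped. Its log2FC was 0.22 (SE 0.11, adj. p 0.18) by edgeR. Without optimized library 1, the lowest of the optimized libraries, it was 0.32 with an adj. p of 0.0091 by the same edgeR test. Within each library the FPKM of Havcr2 was 0.122, 0.110 and 0.102 of that of Lgals9 in control and 0.488, 0.459 and 0.436 in optimized cultures. This ratio does not depend on how libraries are scaled, and it differed by 2.05 on the log2 scale. A two-sided exact permutation test gave p = 0.1, the smallest that 3 libraries against 3 allow, and 0.3 after adjustment over the 3 ratios examined.

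A list of 6 further genes linked to TIM-3 had 1 gene higher and 1 lower by edgeR at an adj. p under 0.05. Its median log2FC was 0.027. The counts for this list and those below compare with 14.7% of all genes tested called higher and 15.2% called lower. Ceacam1, a further TIM-3 ligand, rose from a mean of 8.10 to 12.9 CPM (log2FC 0.67, SE 0.13). Lgals3, the galectin that marks activated macrophages, fell by 1.04 on the log2 scale. Hmgb1, an alarmin bound by TIM-3, had a log2FC of -0.054 (SE 0.10), its libraries overlapped between conditions, and its sign turned without optimized library 1 (0.026).

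Of the PD-1 ligands, Cd274 was expressed and Pdcd1lg2 was close to the limit of detection. Cd274 encodes PD-L1 and was at 67.8, 72.6 and 72.3 CPM in control and 81.2, 69.2 and 74.1 CPM in optimized libraries, with overlap between conditions. Its log2FC was 0.077 (SE 0.088, adj. p 0.57) by edgeR, and it turned negative in 4 alternatives, at -0.046 when libraries were scaled by size alone and between -0.064 and -0.060 in the 3 limma fits on FPKM. The gene lies on chromosome 19 from 29344529 to 29365495. It shares 219 exon bases with Plgrkt, which had 1041 to 1887 counts against 1531 to 1976 for Cd274, and 581 with the non-coding gene Gm36043 (199 to 275 counts), both on the opposite strand. The strand setting of the counting is not given in the sources used here, so reads from the shared bases cannot be assigned to a gene.

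Pdcd1lg2, which encodes PD-L2 and lies next to Cd274 on chromosome 19 from 29388319 to 29448882, had counts of 8, 8 and 11 (control) against 9, 9 and 11 (optimized). It was below the filter on low counts. With no such filter its log2FC was 0.28 with an adj. p of 0.80 by edgeR, so a difference was not detectable at this depth. By FPKM, Cd274 was 162, 186 and 149.9 times the level of Pdcd1lg2 in control and 159, 151 and 116 times in optimized libraries, and these ratios overlapped (two-sided exact permutation test, p = 0.3, adjusted over 3 ratios 0.45). Pdcd1, the gene of the receptor PD-1, had counts of 0, 0 and 2 (control) against 5, 13 and 10 (optimized), too few to enter the main fit. Its means were 0.024 CPM in control and 0.42 CPM in optimized libraries. Every optimized library lay above every control library, as in 21.4% of the genes that were tested.

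Interferon gamma signalling is a main input to PD-L1 in macrophages. A list drawn up around this input, which also holds Cmtm6 and Cmtm4, had 11 genes, of which 10 were tested. By edgeR 5 were lower and 1 higher at an adj. p under 0.05, with a median log2FC of -0.23. Of all genes tested, 15.2% were called lower and 14.7% higher. Without control library 2, 3 were lower. The count of higher genes was 2 by DESeq2 and without optimized library 2. Irf1, the transcription factor that acts on Cd274, fell from a mean of 95.3 to 32.0 CPM, a log2FC of -1.58 (SE 0.11, adj. p 3.4e-06 by edgeR). The receptor chain Ifngr1 fell by 1.26 on the log2 scale, whereas the other chain, Ifngr2, had a log2FC of -0.087. Stat3 was the gene called higher at 0.31, a call lost with library size alone (log2FC 0.18), in all 3 limma fits, and without control library 1, 2 or 3 or optimized library 3. Cmtm6, which protects PD-L1 from degradation, had a log2FC of -0.19 with an adj. p of 0.13 by edgeR. Ifng itself had 0 counts in every library.

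Among the B7 family and its receptors, 7 of 12 genes were tested, with 1 higher and 2 lower by edgeR. The count of higher genes was 2 without control library 1, 2 or 3, and 3 without optimized library 1 or with no low-count filter. Cd276 (B7-H3) rose from a mean of 12.2 to 24.5 CPM, a log2FC of 1.01. Tnfrsf14 (HVEM), the partner of BTLA, fell from 81.6 to 20.9 CPM, a log2FC of -1.97. Cd80, which binds PD-L1 on the same cell as well as CD28 and CTLA-4, had counts of 136, 150 and 227 (control) against 91, 92 and 128 (optimized), which overlapped after scaling (log2FC -0.50, adj. p 0.11 by edgeR). Without optimized library 3 its log2FC was -0.73 with an adj. p of 0.039.

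Lag3, an inhibitory receptor related to CD4 that binds MHC class II, was a low-level gene that was higher in optimized cultures. It had counts of 152, 143 and 209 (control) against 193, 282 and 177 (optimized), or 6.65, 5.83 and 7.65 against 9.14, 12 and 8.56 CPM. After scaling every optimized library lay above every control library, as in 21.4% of all genes tested. The log2FC was 0.56 (SE 0.17, adj. p 0.031) by edgeR. The call was lost without control library 1 (log2FC 0.55, adj. p 0.096), where the change stayed as large, without control library 2 (0.47, adj. p 0.13) and without optimized library 2 (0.39, adj. p 0.11). The call also depended on scaling, with an adj. p of 0.060 by edgeR with library size alone and a log2FC of 0.43, and it was lost in the 3 limma fits. The gene lies on chromosome 6 from 124881320 to 124888765 on the minus strand. Of 8 T cell markers, 6 were at 0 in all libraries, while Lck had 5 to 22 counts and Cd3d had 3 counts in control library 2.

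Vsir encodes VISTA, an inhibitory member of the B7 family that is abundant on myeloid cells. It was at 330.0, 302 and 310.3 CPM in control and 358, 375 and 352 CPM in optimized libraries. Although the conditions did not overlap, as in 21.4% of all genes tested in that direction, the log2FC of 0.21 (SE 0.082) had an adj. p of 0.091 by edgeR. The gene lies on chromosome 10 from 60182630 to 60208463. DESeq2 gave an adj. p of 0.049, and library size alone gave a log2FC of 0.075.

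On a list of 8 genes linked to LAG-3 and VISTA, 5 were tested, with 1 higher and 2 lower by edgeR. The lower genes were Vsig8 and Cd4, the relative of Lag3 (log2FC -1.17). The count of lower genes was 1 with at least 10 counts in every library or with the FPKM minimum, which leave out Vsig8. Selplg, which encodes PSGL-1, a receptor for VISTA at acidic pH, rose from a mean of 189.8 to 508 CPM, a log2FC of 1.42 (SE 0.14, adj. p 3.9e-05 by edgeR). Igsf11, a further VISTA partner, had counts of 25, 20 and 19 (control) against 29, 26 and 35 (optimized), with an adj. p of 0.15 by edgeR. Fgl2 had a log2FC of -0.073, and its relative Fgl1, a LAG-3 ligand, had 0 counts in every control library and 0, 1 and 3 in the optimized libraries. Vsig8 summed to 61 counts over the control libraries and 3 over the optimized libraries, a ratio of 0.056 with an exact 95% interval of 0.011 to 0.17 that covers counting error only.

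Cd200r1, the receptor of CD200, was lower under the optimized conditions. It had counts of 939, 1054 and 1226 (control) against 375, 494 and 450 (optimized), which was 41.1, 43.0 and 44.9 CPM against 17.8, 21.0 and 21.8 CPM. The conditions did not overlap, as in 22.5% of all genes tested in that direction. The log2FC was -1.09 (SE 0.10, adj. p 3.3e-05) by edgeR, and every alternative fit called it lower. The gene lies on chromosome 16 from 44586096 to 44615343 on the plus strand and shares 228 exon bases with Gm60988 on the other strand, which is not used here.

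The CD200 axis had 5 of 7 further genes tested, with 3 lower and 1 higher by edgeR and a median log2FC of -0.46. The adaptors that CD200R1 uses were lower with it. Dok2, the main adaptor bound by the phosphorylated receptor, fell from 1872, 1745 and 2248 counts to 233, 349 and 229, a log2FC of -2.67 (SE 0.13, adj. p 5.2e-07 by edgeR). Dok1 fell by 0.77 and Rasa1, the Ras GTPase-activating protein recruited through Dok proteins, by 0.45 on the log2 scale.

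Cd200r4, a paralog that pairs with the activating adaptor DAP12, went the other way. It had counts of 777, 929 and 1037 (control) against 1025, 1363 and 1116 (optimized), a log2FC of 0.55 (SE 0.098, adj. p 0.0019 by edgeR). Cd200r2 had counts of 1, 3 and 3 (control) against 7, 9 and 6 (optimized), Cd200r3 at most 2 counts in any library, and neither was tested. These paralogs are similar in sequence, and how reads that fit several of them were counted is not given in the sources used here, so the split between them is uncertain. Cd200 itself, the ligand, was at counts of 15, 22 and 23 (control) against 3, 19 and 16 (optimized) (adj. p 0.56 by edgeR).

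Sirpa and Cd47, receptor and ligand of the signal against engulfment, fell together. Sirpa was at 3833, 3739 and 3774 CPM in control and 1724, 1733 and 1664 CPM in optimized libraries, the most abundant member in every library. Its log2FC was -1.15 (SE 0.097, adj. p 1.4e-05) by edgeR. Cd47 was at 142, 162 and 151 CPM in control and 71.5, 64.7 and 67.6 CPM in optimized libraries, log2FC -1.16 (SE 0.088, adj. p 6.9e-06). In neither gene did the conditions overlap, as in 22.5% of all genes tested in that direction.

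The ratio of the FPKM of Sirpa to that of Cd47 within a library was 23.6, 20.1 and 21.8 in control and 21.0, 23.3 and 21.4 in optimized cultures. The means were 21.8 ± 1.74 and 21.9 ± 1.25 (SD, n = 3 each), and the log2 ratio differed by 0.0082 (two-sided exact permutation test, p = 1). The sign of this difference was negative with a pseudocount and without control library 2 or optimized library 2. Sirpa lies on chromosome 2 from 129434039 to 129474148 and Cd47 on chromosome 16 from 49620896 to 49735373, the same chromosome as Cd200r1. The non-coding genes whose exons Cd47 overlaps on the other strand, Gm4633 and Gm5486, had at most 11 counts in a library.

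Of 11 further genes of the SIRPA-CD47 axis, 10 were tested, with 3 higher and 3 lower by edgeR and a median log2FC of 0.33. The phosphatase Ptpn6 (SHP-1), which SIRPα recruits to its inhibitory tail motifs, fell from a mean of 463 to 331 CPM, a log2FC of -0.48 (SE 0.099, adj. p 0.0045 by edgeR). Ptpn11 (SHP-2) had a log2FC of -0.30 with an adj. p of 0.040, which was above 0.05 without any 1 of 5 libraries, the exception being optimized library 1. The scaffold Skap2 fell by 0.53 on the log2 scale. Thbs1, which encodes thrombospondin-1, another ligand of CD47, rose from 26.6 to 43.4 CPM (log2FC 0.71).

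Of the 3 low-level activating paralogs of Sirpa, Sirpb1c and Sirpb1b were higher in optimized cultures. Sirpb1c had counts of 34, 45 and 54 (control) against 110, 163 and 148 (optimized) (log2FC 1.86, SE 0.21, adj. p 9.3e-05 by edgeR). Sirpb1b had counts of 36, 26 and 51 (control) against 76, 112 and 128 (optimized), with a log2FC of 1.68. Sirpb1a had 13, 10 and 20 against 26, 20 and 13 counts and overlapped between conditions. Reads shared between these similar genes and Sirpa may have been split in a way that is not given in the sources used here.

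Levels between genes were compared per length, on the FPKM scale. In control cultures the order was Sirpa (mean 466 FPKM), Lgals9 (128), Vsir (42.7), Cd200r1 (23.6), Cd47 (21.5), Cd274 (17.6), Havcr2 (14.2), Lag3 (3.39) and Pdcd1lg2 (0.107). Cd200r1 and Cd47 overlapped between libraries, and no other neighbours in this order did. In optimized cultures Havcr2 moved from rank 7 to rank 3 with a mean of 62.5 FPKM, behind Sirpa (191) and Lgals9 (136) and ahead of Vsir (44.7). Cd274 (16.9), Cd200r1 (10.1), Cd47 (8.75), Lag3 (4.54) and Pdcd1lg2 (0.121) followed, and again only the libraries of Cd200r1 and Cd47 overlapped.

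These ranks rest on the gene lengths behind the deposited FPKM values, which differed from the exon lengths of GENCODE M39. The lengths were worked back from counts and FPKM, with the count total of each library taken as the denominator. For Havcr2 the deposited values then correspond to 2761 to 2925 bases, against 4877 in GENCODE M39, and for Vsir to 7563 to 8013 against 5014. The denominator behind the deposited FPKM is not given in the sources used here, so these lengths and their ranges between libraries are approximate. With GENCODE lengths, a calculation added after the data were seen, Havcr2 was at rank 4 under the optimized conditions with a mean of 36.1 on the same per-length scale, below Vsir with 69.0. Against all genes tested, Sirpa lay above 98.0% to 99.3% of them by FPKM across the 6 libraries, Havcr2 above 73.6% to 94.6% and Pdcd1lg2 above 3.43% to 5.07%.

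**Figure D2:**
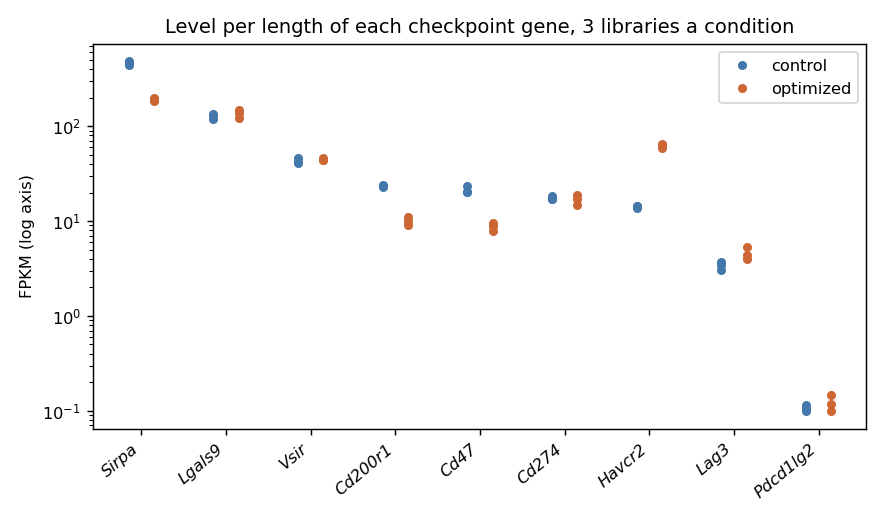
Level per length of the 9 checkpoint genes in FPKM on a log axis, with 1 point per library, 3 control (blue) and 3 optimized (orange), ordered by the control mean. Havcr2 moves from 14.2 to 62.5 FPKM and passes Vsir (not with GENCODE M39 lengths), Cd200r1, Cd47 and Cd274, while Sirpa stays highest and Pdcd1lg2 lowest.

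Over all partner and signalling lists, 84 genes that are no members, 83 were in the table and 67 were tested. By edgeR 18 were higher and 25 lower at an adj. p under 0.05, and their median log2FC was 0.00073. The called share was 64.2%, against 29.8% of all genes and 33.6% of genes with a mean of at least 5 CPM. The lists were chosen with earlier results of these data known, so this share does not test them. It also includes TGF-β response genes, in cultures given TGF-β. The list of 8 TGF-β response genes had 7 higher and 1 lower, from 4.56 for Pmepa1, a feedback inhibitor of TGF-β signalling, to -0.55 for Smad3, a signal transducer of the pathway. The TIGIT axis had 1 gene called of 3 tested, Nectin3, an adhesion ligand, which rose from a mean of 3.82 to 12.9 CPM. The count was 2 with RLE scaling, by DESeq2, with no low-count filter, with at least 10 counts in every library and without optimized library 1, where Nectin2 was also called. It was 0 with the FPKM minimum, which leaves out Nectin3.

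A list of other inhibitory receptors of myeloid cells held 15 genes, of which 13 were tested. By edgeR 8 were lower and 2 higher, with a median log2FC of -1.05. Of all genes tested, 15.2% were called lower and 14.7% higher. The list was chosen with earlier results of these data known, so its counts do not test it. Timd4, a phosphatidylserine receptor of the same gene family as Havcr2, had the lowest value, falling from a mean of 3.55 to 0.275 CPM (log2FC -3.66, SE 0.29). Havcr1 had 0 counts in every library. The highest was Cd33, a sialic acid receptor, which rose from a mean of 27.5 to 75.1 CPM, a log2FC of 1.45.

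**Figure D3:**
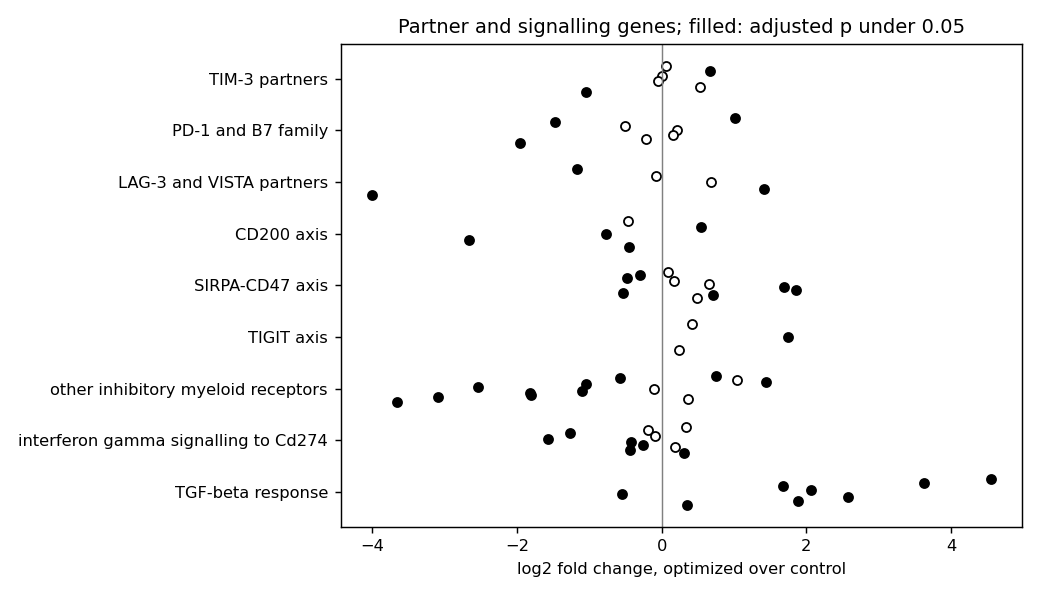
Log2 fold change (optimized over control, edgeR) of the 67 tested partner and signalling genes, 1 point per gene, grouped by list, with filled points for an adj. p under 0.05. The TGF-β response list lies to the right with 7 of 8 genes higher, and the other inhibitory myeloid receptors lie to the left with 8 of 13 lower. Of all genes tested, 14.7% were called higher and 15.2% lower.

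The genes most like Havcr2 and Cd47, the members with the highest and the lowest log2FC, were sought by the distance between log2 CPM profiles over the 6 libraries, each centred on its mean, among 9838 genes with a mean of at least 5 CPM, with the gene itself and predicted genes (symbols of the Gm and Rik kind) left out. For Havcr2 they were Psat1, an enzyme of serine synthesis (distance 0.074), Cx3cr1, the fractalkine receptor (0.22), and Csf1, a ligand of CSF1R (0.23). Psat1 reached at most 51.1 CPM in control and 213, 254 and 242 CPM in optimized libraries, following Havcr2 also in the lower value of optimized library 1. For Cd47 they were Smpdl3b (0.13), Mcl1, a survival factor of the BCL2 family (0.14), and Trafd1 (0.16). Mcl1 was at 609, 658 and 611 CPM in control and 288, 284 and 299 CPM in optimized libraries, which like Cd47 were highest in control library 2. With 2 conditions and 6 libraries, profiles with a like difference between conditions lie close in this measure.

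**Figure D4:**
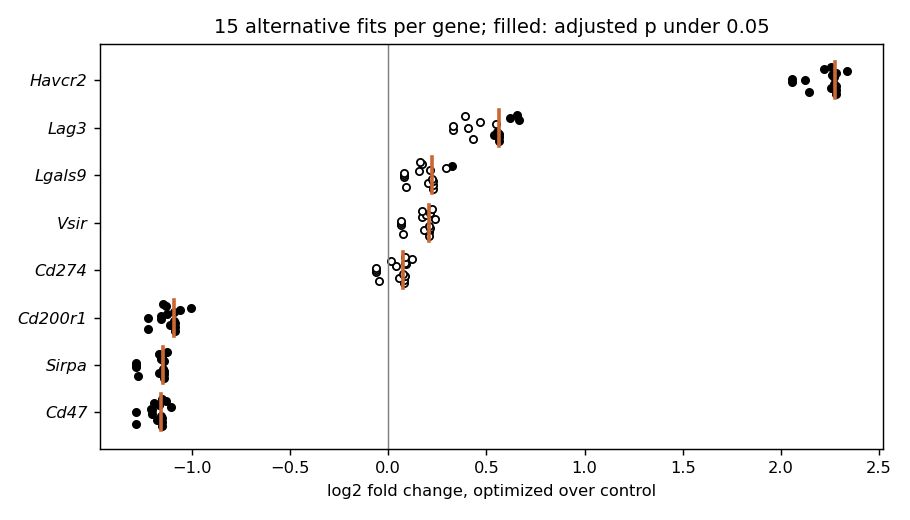
Log2 fold change (optimized over control) of the 8 tested checkpoint genes under 15 alternative fits each (points, filled where the adj. p was under 0.05), with the value reported in the text as an orange line. Havcr2, Cd200r1, Sirpa and Cd47 are filled throughout, Lag3 in 8 of 15 fits, and Cd274 lies on both sides of 0.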

How the data were processed

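RNA-seq of 6 libraries, 3 control and 3 optimized, was analysed from the processed tables. Alignment (HISAT2, mm39) and counting (featureCounts) were run by the authors in Galaxy on paired-end reads, per the labels and the methods. Versions, annotation, strand setting and the treatment of multi-gene reads are not given in the sources used here. The authors deposited raw counts per gene symbol and a matching FPKM table. Each column was matched to a sample through its label.

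The count model was edgeR 4.0.16 under R 4.3.3, using filterByExpr, TMM factors, glmQLFit and glmQLFTest on condition alone, with Benjamini-Hochberg adjustment over 14618 genes and a threshold of 0.05. The standard error was the size of the log2 fold change divided by the square root of F. The count totals given above set the precision, so Pdcd1lg2, Pdcd1 and Cd200 carry large errors. Ratios of FPKM were compared with two-sided exact permutation tests. Positions, exon overlaps and upstream sequences were taken from GENCODE M39 (GRCm39, the same build as mm39), which held 35087 of 41079 symbols.

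The members and lists were chosen with earlier results of these data known. All members were named, and from each list the highest and lowest gene past the threshold, paralogs and binding partners. Ifngr1, Ifngr2, Cmtm6, Ifng, Dok1, Rasa1, Havcr1, Nectin2 and Cd4 on the partner and signalling lists fell outside this rule. They were named after their values were seen. Bag6, Fyn and Ptk2b were named because their sign changed in alternative fits. Alternatives were RLE factors or library size alone as scaling, DESeq2 1.42.0 as the tool, and either no low-count filter or a minimum of 10 counts per library. The replicate number was also tried as a block, and each library was omitted once. The deposited FPKM values were tested by limma 3.58.1 with pseudocounts of 1 and 0.1, and with a mean FPKM minimum of 1. Such log2 differences include the pseudocount and are too small for low genes. Each model was first tested on simulated counts.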

Additional observations from a re-analysis of the deposited data

How the results depend on the processing

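The falls of Cd200r1, Sirpa and Cd47 and the rise of Havcr2 passed the test in the same direction in all 15 alternatives. Members called higher numbered 2, and 1 with library size alone and in each of the 3 limma fits, where Lag3 was lost. Its log2 fold change was then 0.43 (library size alone), 0.33 (limma, pseudocount 1, with and without the FPKM minimum) and 0.40 (limma, pseudocount 0.1). DESeq2 called Vsir higher at 0.21, for 3 members called higher. With libraries left out in turn, members called higher ranged from 1 to 3, Lag3 from 0.39 to 0.66 and Lgals9 from 0.16 to 0.32. Without optimized library 1, Lgals9 was called. Library size alone moved the median of all genes by -0.13 on the log2 scale and the share of higher calls from 49.1% to 32.3%. In the limma fit with the FPKM minimum, 1176 genes were higher in place of 2142, 28.4% of calls. With GENCODE M39 lengths, the ranks became 4 for Cd274 and 6 for Cd200r1 in control, and 3 for Vsir, 4 for Havcr2, 6 for Cd47 and 7 for Cd200r1 in optimized cultures. Values near 0 that passed no test changed sign. With library size alone these were Cd274 (-0.046), Bag6 (-0.077), Fyn (-0.13) and Ptk2b (-0.036). In the limma fits with pseudocount 1 they were -0.060, -0.082, -0.11 and -0.048, and with pseudocount 0.1 they were -0.064, -0.084, -0.14 and -0.049. Fyn was also at -0.020 with no low-count filter, at -0.00080 with the block, and ranged from -0.060 to 0.055 with libraries left out in turn. Hmgb1 then ranged from -0.15 to 0.026. The log2 difference of the ratio of Sirpa to Cd47 was -0.0011 and -0.078 with pseudocounts of 0.1 and 1, and -0.050 to 0.065 with libraries left out in turn. For 73 genes that are no members, 1012 of 1084 alternative values kept both direction and call, 25 lost a call, 28 gained one and 19 changed sign, none of these called in either fit. The causes were not tested. Same-numbered libraries had deviations that correlated at 0.27, -0.012 and 0.18, and libraries with unlike numbers at -0.29 to 0.19. Whether the numbers pair libraries cannot be told from these values. With the replicate number as a block, 2401 genes were higher and 2523 lower, and the counts of members called stayed at 2 and 3. Under the block Cd80 was called lower (-0.51, adjusted p 0.029 by edgeR), and 2 genes each were higher on the TIGIT and interferon gamma lists in place of 1. Apart from Pdcd1lg2, depth did not keep a member from being tested.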
